A study of Arabidopsis thaliana with 18 samples.

Results

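A set of 10 genes that Arabidopsis uses when carbon runs short was followed in seedlings that overexpress either an intact or an AT-hook-mutant form of the growth repressor SOB3. They were DIN1 (also SEN1), DIN6 (ASN1), DIN10, bZIP1, KMD1, MCCA, MCCB, IVD, DIN4 and BCE2, 10 of the 24953 genes in the tables, and were found by their locus identifiers, which match 19 of the 32811 transcripts. Levels are given in CPM, the reads of a transcript scaled to the depth of its library. The genes were chosen because the difference between the genotypes in bZIP1, KMD1 and MCCA had opposite signs at ZT4 and ZT9 in these same libraries. The ZT4 and ZT9 differences, and the change from ZT4 to ZT9, are therefore given as a description without a test. The rule set no threshold, so there are no values just inside or outside it. Tests were made on contrasts that the stated reason for the choice did not name. These were the genotype difference at ZT24 and the change over the day averaged over the genotypes. The genes were listed as dark-induced carbon starvation genes, with earlier results of these data known. A rise in the dark is what that label implies, so the test of time only checks the label. All 10 genes passed the filter on low values, a mean of at least 0.5 CPM.

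The study asked how AHL proteins, the AT-hook nuclear proteins to which SOB3 belongs, act on transcripts of seedlings in short days. Whole seedlings of sob3-6 and SOB3-D, both in the Col-0 strain, were grown on medium with 1% sucrose at 22 °C under 8 h of light and 16 h of dark. RNA was sequenced at ZT4 (middle of the light period) and ZT9 (1 h after lights-off) on day 5 and at ZT24 (dawn) on day 6, with 3 biological replicates per genotype and time, 18 libraries in all. Each sample pooled 20 to 35 seedlings, replicates grew on different plates, and the genotypes of a replicate set shared their plate or plates. SOB3-D is an activation-tagged line that overexpresses SOB3 and has short hypocotyls. The tall sob3-6 line carries the same tag plus a missense change in the AT-hook, the part that contacts DNA, and acts as a dominant negative, so both genotypes overexpress a form of SOB3. No wild type was analysed here. A higher level in sob3-6 and a lower level in SOB3-D than in wild type could not be told apart.

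As background, plants store starch by day and spend it at night, and when sugar falls short the kinase SnRK1 and bZIP transcription factors of the C and S1 groups switch cells to breaking down protein, lipid and cell wall. DIN (dark-inducible) genes were found as transcripts that accumulate when leaves are darkened and that sugar holds low. The branched-chain amino acids released from protein are oxidised in mitochondria by the branched-chain keto acid dehydrogenase complex (DIN4, BCE2), isovaleryl-CoA dehydrogenase (IVD) and 3-methylcrotonyl-CoA carboxylase (MCCA, MCCB).

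Sequence at the start of 5 of the genes is shown. In the test of time given further on, 9 of the 10 genes were higher at ZT9 than at ZT4, and 10 of 10 were higher at ZT24 than at ZT4. A link between sequence and these rises was not tested. Windows of 300 bases (250 before the annotated gene start and 50 from it on) were cut from RefSeq's TAIR10.1 assembly, on which all 10 loci were found. TATCCA, an element known from sugar-starved cereal cells, was searched on both strands and lay in 6 of the 10 windows, in 14 of 56 other genes of the same pathways and in 16.1% of 27443 protein-coding gene windows. TATCCA was absent from the windows of DIN10, IVD, DIN4 and BCE2, and DIN10 had the largest rise of the set at ZT9. The 5 genes printed below all hold the element. The G-box CACGTG, bound by many bZIP factors, lay in 1 of 10 windows (DIN6, with 2 copies) and in 7.7% of all windows. Its ACGT core lay in 5 of 10 and 49.9%, and ACTCAT, known from the proline dehydrogenase promoter, in 1 of 10 and 14.7%. Each G-box also counts as an ACGT. These matches are letters in a window and not measured binding sites. The 250 bases before KMD1 and DIN6 and, for the genes with TATCCA at or after the start, 30 bases around it are printed on the strand of the gene. Capitals mark TATCCA, its reverse complement TGGATA, and CACGTG.
KMD1 (chr1:30241202-30241451, plus strand): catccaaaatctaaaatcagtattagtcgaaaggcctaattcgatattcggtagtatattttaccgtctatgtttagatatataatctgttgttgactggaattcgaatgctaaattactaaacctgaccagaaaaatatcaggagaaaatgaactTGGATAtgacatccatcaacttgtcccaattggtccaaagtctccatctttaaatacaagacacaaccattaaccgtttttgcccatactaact
DIN6 (chr3:17441432-17441681, minus strand): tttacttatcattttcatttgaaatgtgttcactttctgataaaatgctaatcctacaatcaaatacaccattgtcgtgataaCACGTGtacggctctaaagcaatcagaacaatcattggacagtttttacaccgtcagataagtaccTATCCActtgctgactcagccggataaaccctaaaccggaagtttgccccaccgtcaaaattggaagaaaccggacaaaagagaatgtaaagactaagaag
DIN1 (chr4:16944897-16944926, plus strand): cataattgaattTATCCAtagaaatgatag
MCCA (chr1:739536-739565, plus strand): acatcagacacaTATCCAttccgaccaaac
MCCB (chr4:16301014-16301043, plus strand): ttattgcttgatTGGATAaagcttcaattt

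Depth lay between 6012747 and 11076919 reads per library (median 8199501.5), as the steps between the lowest values give it, so that 1 read stood for 0.0903 to 0.166 CPM. SOB3 itself read 227 to 272 CPM in sob3-6 and 168 to 191 CPM in SOB3-D seedlings at ZT4, 237 to 248 and 133 to 157 CPM at ZT9, and 314 to 331 and 211 to 235 CPM at ZT24, which does not separate the mutant from the intact form. Of the clock genes, LHY was at 532 to 758 CPM at ZT24 and at most 1.5 CPM at ZT9, and TOC1 was at 238 to 280 CPM at ZT9 and at most 33.2 CPM otherwise. Summed shoot markers (RBCS1A, LHCB1.1, LHCB2.1 and RCA, 4 of 4 present) lay between 16080 and 33476 CPM, and summed root markers (EXPA7, COBL9, PRP3 and TIP2;3, 4 of 4 present) between 21.9 and 74.0 CPM, as in whole seedlings. AG and AP3, flower genes, were at or near 0, while the seed storage gene CRA1 read 20.3 to 330 CPM. In pooled seedlings, fewer cells that express a gene and less RNA per cell cannot be told apart.

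DIN1, a rhodanese-like chloroplast protein and marker of dark-induced senescence (AT4G35770, chr4:16944878-16946266), had the largest ratio of the set between the genotypes in the light. At ZT4 it had 60.6, 34.6 and 44.2 CPM in the sob3-6 libraries, against 7.21, 3.34 and 2.33 CPM in the SOB3-D libraries. The groups did not overlap, and the sob3-6 mean of 46.5 ± 13.2 CPM stood against 4.29 ± 2.58 CPM for SOB3-D (SD, n = 3 each), 10.8-fold higher in sob3-6 (log2 difference 3.39, SE 0.34). The SOB3-D values rest on 79, 37 and 14 reads. At ZT9 DIN1 had 201, 154 and 204 CPM in sob3-6 and 186, 91.6 and 179 CPM in SOB3-D, and at ZT24 it had 115, 161 and 283 CPM in sob3-6 and 179, 158 and 179 CPM in the SOB3-D libraries. The groups overlapped at both of these times. The mean at ZT9 was 4.01 times that at ZT4 in sob3-6 and 35.5 times in SOB3-D.

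DIN6, the dark-inducible asparagine synthetase that packs nitrogen into asparagine (AT3G47340, chr3:17437840-17441431), stood higher in sob3-6 at both ZT4 and ZT9. It had 105, 61.1 and 142 CPM in sob3-6 and 23.5, 11.2 and 17.1 CPM in SOB3-D seedlings at ZT4, a mean ratio of 5.96. At ZT9 it had 194, 148 and 228 CPM in sob3-6 and 69.7, 63.9 and 96.97 CPM in SOB3-D, a mean ratio of 2.47. The genotypes did not overlap at either time. At ZT24 it had 107, 133 and 327 CPM in sob3-6 and 239, 123 and 191 CPM in SOB3-D, and the groups overlapped. Its level in SOB3-D followed the order ZT4, ZT9, ZT24 with no overlap, while in sob3-6 the ZT9 and ZT24 libraries overlapped.

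DIN10, a protein of the raffinose synthase family (AT5G20250, chr5:6833564-6836862), had its highest level at ZT9 in both genotypes. It had 98.1, 48.2 and 63.8 CPM in sob3-6 and 39.5, 40.0 and 34.9 CPM in SOB3-D seedlings at ZT4, then 633, 548 and 917 CPM in sob3-6 and 1546, 1069 and 1270 CPM in SOB3-D seedlings at ZT9. At ZT24 it had 77.1, 69.2 and 191 CPM in sob3-6 and 194, 142 and 226 CPM in SOB3-D. All sob3-6 libraries lay above SOB3-D at ZT4 and all lay below at ZT9. The log2 difference was 0.81 (SE 0.22) at ZT4 and -0.91 (SE 0.20) at ZT9.

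The regulators of the set are bZIP1 and KMD1, and both stood higher in sob3-6 in the light and lower after lights-off. bZIP1, an S1-group transcription factor of the sugar starvation response (AT5G49450, chr5:20051829-20052735), had 16.5, 15.2 and 19.6 CPM in sob3-6 and 12.3, 11.2 and 9.31 CPM in SOB3-D seedlings at ZT4. At ZT9 it had 25.8, 23.1 and 26.5 CPM in sob3-6 and 37.2, 31.3 and 43.9 CPM in SOB3-D, and at ZT24 29.4, 30.4 and 43.5 CPM in sob3-6 and 45.3, 45.1 and 46.8 CPM in SOB3-D. The genotypes did not overlap at any of the 3 times, with sob3-6 above at ZT4 and below at ZT9 and ZT24. The log2 difference was 0.62 (SE 0.15) at ZT4 and -0.56 (SE 0.13) at ZT9. Transcript AT5G49448.1 had the same reads as bZIP1 in 18 of 18 libraries, so the reads of these loci cannot be told apart.

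KMD1, an F-box protein that targets type-B response regulators of cytokinin signalling for degradation (AT1G80440, chr1:30241452-30243176), had 63.1, 48.8 and 99.1 CPM in sob3-6 and 36.8, 39.5 and 29.9 CPM in SOB3-D seedlings at ZT4. It had 143, 147 and 132 CPM in sob3-6 and 189, 167 and 198 CPM in SOB3-D seedlings at ZT9, and 128, 170 and 226 CPM in sob3-6 and 177, 185 and 183 CPM in SOB3-D seedlings at ZT24. The genotypes lay apart in opposite directions at ZT4 and ZT9 (log2 difference 0.93, SE 0.23, and -0.39, SE 0.09) and overlapped at ZT24. In SOB3-D the ZT9 and ZT24 levels overlapped, and both lay above ZT4.

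Among the enzymes of leucine breakdown, the carboxylase subunits showed the same turn. MCCA, the biotin-carrying subunit (AT1G03090, chr1:739544-744184), had 35.0, 25.3 and 33.8 CPM in sob3-6 and 22.3, 16.3 and 12.97 CPM in SOB3-D seedlings at ZT4. At ZT9 it had 58.4, 54.0 and 84.7 CPM in sob3-6 and 110, 86.9 and 118 CPM in SOB3-D, and at ZT24 53.0, 68.7 and 112 CPM in sob3-6 and 94.9, 94.6 and 117 CPM in SOB3-D. The groups lay apart at ZT4 (log2 difference 0.87, SE 0.20) and, the other way, at ZT9 (-0.69, SE 0.17), and overlapped at ZT24. MCCA shares 7.92% of its 84-base stretches with the overlapping gene AT1G03100, which had group means of 4.44 to 8.10 CPM. MCCB, the carboxyltransferase subunit (AT4G34030, chr4:16301027-16304099), had 48.5 to 53.0 CPM in sob3-6 and 39.4 to 44.6 CPM in SOB3-D seedlings at ZT4, 59.6 to 62.4 and 69.9 to 81.6 CPM at ZT9, and 59.8 to 77.2 and 79.0 to 95.0 CPM at ZT24. Its genotypes overlapped at none of these times, and its ZT4 and ZT9 differences (0.28, SE 0.09, and -0.32, SE 0.09) were smaller than those of MCCA.

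The remaining enzymes are IVD, DIN4 and BCE2. IVD, which oxidises isovaleryl-CoA (AT3G45300, chr3:16621452-16625043), had 34.1 to 46.3 CPM in sob3-6 and 32.0 to 47.6 CPM in SOB3-D seedlings at ZT4, 45.1 to 54.7 and 44.3 to 54.1 CPM at ZT9, and 60.6 to 106 and 94.5 to 112 CPM at ZT24, with overlap at each time. DIN4, the E1 beta subunit of the keto acid dehydrogenase (AT3G13450, chr3:4382198-4384436), had 19.96 to 20.5 CPM in sob3-6 and 13 to 16.6 CPM in SOB3-D seedlings at ZT4, 40.9 to 48.5 and 41.4 to 54.2 CPM at ZT9, and 26.9 to 40.0 and 28.1 to 37.7 CPM at ZT24. BCE2, its E2 core subunit (AT3G06850, chr3:2157908-2160669), had 24.8 to 27.5 CPM in sob3-6 and 17.7 to 20.2 CPM in SOB3-D seedlings at ZT4, 31.0 to 38.6 and 36.6 to 41.0 CPM at ZT9, and 31.4 to 44.3 and 32.8 to 45.5 CPM at ZT24. DIN4 and BCE2 lay apart between genotypes at ZT4 and overlapped at ZT9 and ZT24.

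**Figure D1:**
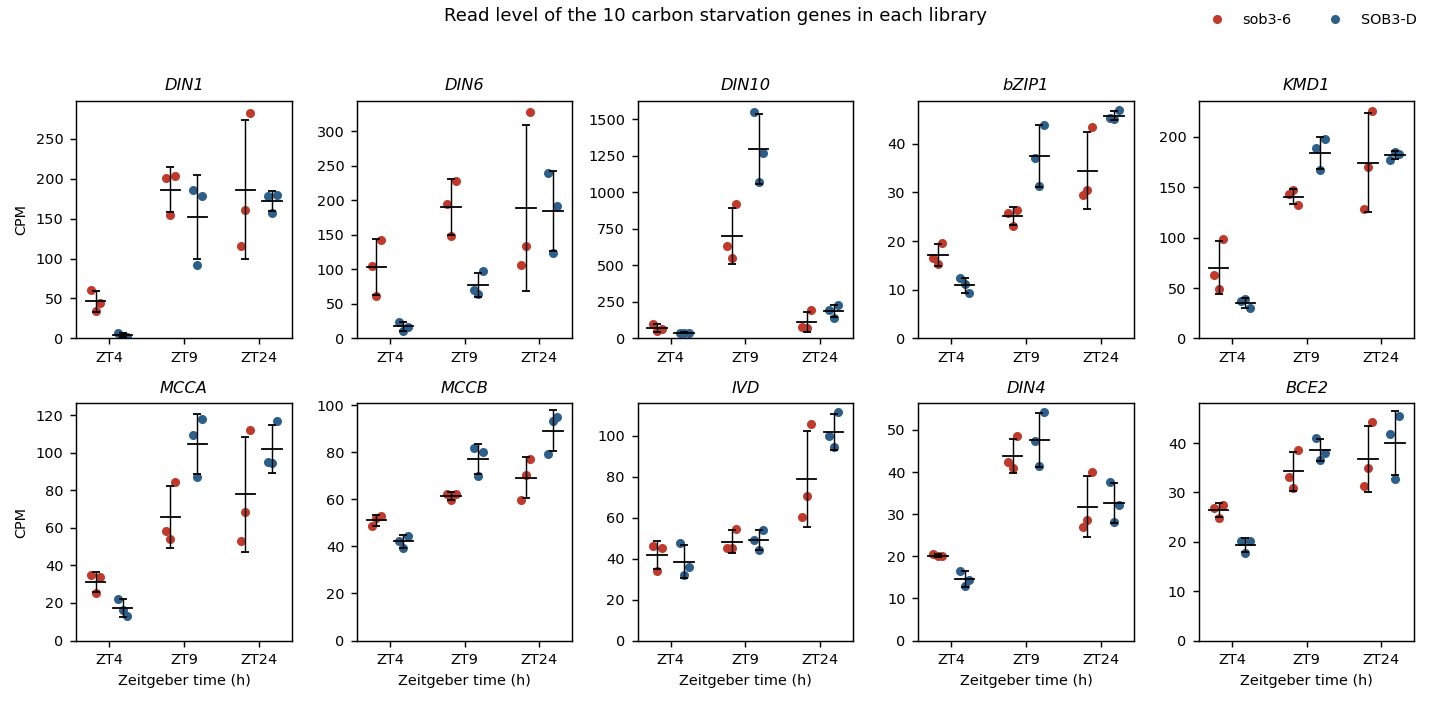
Levels of the 10 carbon starvation genes in CPM (y axis, from 0) at ZT4, ZT9 and ZT24 (x axis). Points are the 3 libraries of sob3-6 (red, left) and of SOB3-D (blue, right), lines are means and bars SD. DIN1 has the largest ratio between the genotypes at ZT4, though not the widest gap in CPM. The red points of bZIP1, KMD1 and MCCA sit above the blue at ZT4 and below them at ZT9.

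Over the set, the genotype difference at ZT4 was positive for 10 of 10 genes, with a median log2 difference of 0.72 against 0.04 over all 28159 transcripts tested. At ZT9 it was positive for 2 (DIN1 and DIN6) and negative for 8, with a median of -0.25 against 0.03. The change of the difference from ZT4 to ZT9 was negative for 10 of 10 genes, between -3.04 for DIN1 and -0.15 for IVD. Since the genes were chosen on these differences, nothing is read from these counts. Within the set the genes fall into those still higher in sob3-6 at ZT9 (DIN6, and DIN1 with overlapping groups), those whose 3 replicate pairs all turned sign (DIN10, bZIP1, KMD1, MCCA, MCCB and DIN4), and BCE2 and IVD.

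**Figure D2:**
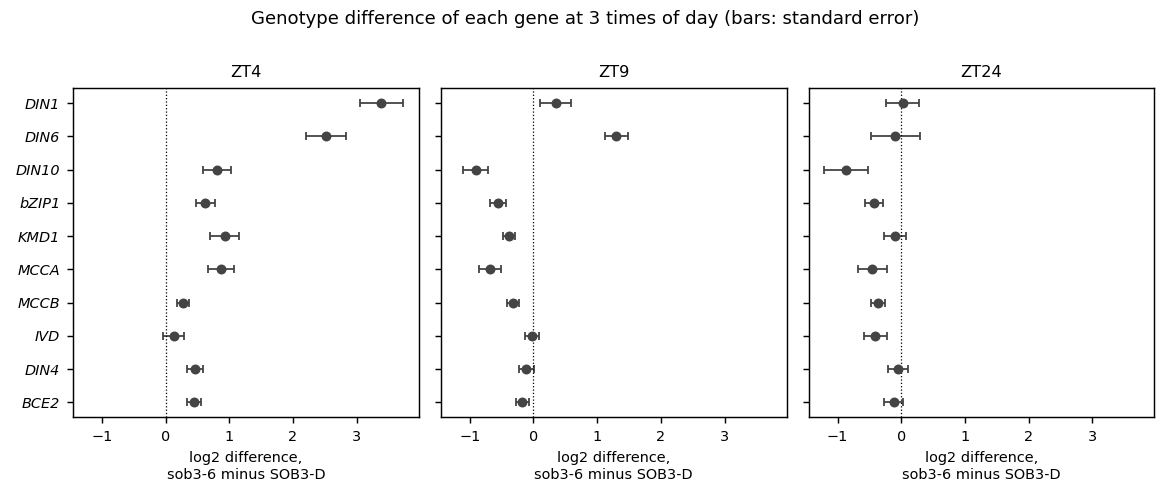
Log2 difference of sob3-6 minus SOB3-D (x axis) for each of the 10 genes (rows) at ZT4, ZT9 and ZT24, with standard errors from the fit of the 6 libraries of each time. All 10 points lie right of 0 at ZT4, 8 lie left of it at ZT9 and 9 at ZT24.

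Averaged over the genotypes, most genes of the set were higher at ZT9 and ZT24 than at ZT4. Light, clock time and, for ZT24, seedling age differ together between these times and cannot be told apart. Between ZT9 and ZT4, 9 of 10 genes rose and 0 fell in limma's test on all 18 libraries (called at an adjusted p under 0.05 over all transcripts), where 29.0% of all transcripts rose and 15.9% fell. In limma the largest log2 changes were those of DIN10 (4.20, SE 0.22, adjusted p = 6.36e-11) and DIN1 (3.54, SE 0.25, adjusted p = 2.39e-09). MCCA (1.82), KMD1 (1.72), DIN6 (1.55), DIN4 (1.38), bZIP1 (1.14), BCE2 (0.67) and MCCB (0.56) had adjusted p between 5.70e-09 and 0.000128. In limma IVD missed the threshold (0.29, SE 0.13, adjusted p = 0.0728) and passed it with a replicate block (adjusted p = 0.0258). That block joins the same number across times, for which shared plates are not stated. The median log2 change was 1.47, against 0.07 over all transcripts.

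Between ZT24 and ZT9, within the night, 3 of 10 genes rose and 2 fell in limma's test. These shares are near those over all transcripts, so the counts are not read as a result about the set. IVD (log2 0.86, SE 0.13, adjusted p = 2.12e-05), bZIP1 (0.36, SE 0.11, adjusted p = 0.00962) and MCCB (0.18, SE 0.07, adjusted p = 0.0382) rose, against 22.2% of all transcripts. DIN10 (-2.78, SE 0.22, adjusted p = 1.13e-08) and DIN4 (-0.51, SE 0.10, adjusted p = 0.000535) fell, against 22.8%. The other 5 did not pass in limma's test, with log2 changes between 0.07 and 0.53. Without the replicate 2 libraries bZIP1 (adjusted p = 0.111) and MCCB (adjusted p = 0.428) no longer passed. MCCB also missed the threshold without replicate 3 (0.204), in edgeR (0.0644), in DESeq2 (0.0557) and after TMM rescaling (0.0737), while DIN6 passed with a replicate block (adjusted p = 0.0203). Between ZT24 and ZT4, 10 of 10 genes rose and 0 fell, where 27.1% of all transcripts rose and 18.2% fell, with log2 changes between 0.74 for BCE2 and 3.61 for DIN1 and a median of 1.46 against 0.06.

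**Figure D3:**
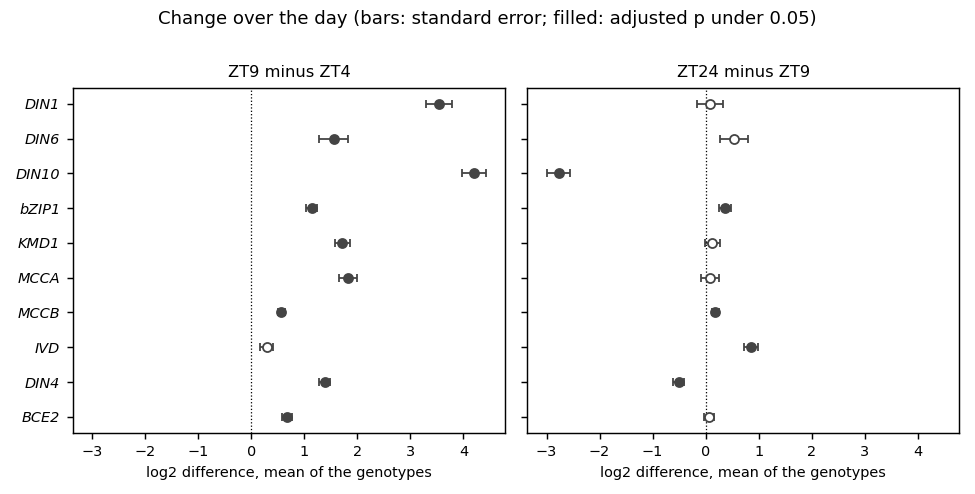
Log2 difference between times, averaged over sob3-6 and SOB3-D (x axis), for each of the 10 genes (rows), with standard errors from the fit of all 18 libraries. Filled points passed an adjusted p of 0.05. In the ZT9 minus ZT4 panel 9 filled points lie right of 0, and in the ZT24 minus ZT9 panel DIN10 lies at -2.78.

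Dawn is the genotype contrast that the stated reason for the choice did not name. There 9 of 10 genes had a lower and 1 had a higher mean log2 level in sob3-6. The median was -0.24 against 0.01 over all transcripts. In limma's test 0 of 10 genes were called in either direction, where 4.98% of all transcripts were called higher and 2.09% lower. That test left out the pairing of the genotypes by plate. The paired fit, given below, called 5 of 10 lower, where 5.06% of all transcripts were called lower. At an unadjusted p under 0.05, 0 were higher and 4 were lower (DIN10, bZIP1, MCCB and IVD), and edgeR and DESeq2 on the recovered reads also called 0. The limma log2 differences were -0.87 for DIN10 (SE 0.34, adjusted p = 0.182), -0.45 for MCCA (SE 0.23, adjusted p = 0.298), -0.43 for bZIP1 (SE 0.14, adjusted p = 0.112), -0.41 for IVD (SE 0.18, adjusted p = 0.222) and -0.36 for MCCB (SE 0.11, adjusted p = 0.0867). DIN1, DIN6, KMD1, DIN4 and BCE2 lay between -0.12 and 0.02, with adjusted p between 0.706 and 0.977.

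The call at ZT24 turned on the handling of the replicates. Samples with the same replicate number shared plates, and with the replicate number as a block 5 of 10 genes were called lower in sob3-6, namely DIN10 (adjusted p = 0.0076), bZIP1 (0.0268), MCCA (0.0368), MCCB (0.00474) and IVD (0.0321), where 5.06% of all transcripts were called lower in the same fit. Without sob3-6 replicate 3 the same 5 genes were called lower, with log2 differences of -1.33 for DIN10, -0.75 for MCCA, -0.63 for IVD, -0.60 for bZIP1 and -0.45 for MCCB, where 2.19% of all transcripts were called lower. In that sob3-6 library 10 of 10 genes had their highest value of the group, and their summed level was 1450 CPM against 688 and 837 CPM in the other sob3-6 libraries. The SOB3-D libraries summed to 1188, 996 and 1227 CPM at ZT24. SOB3-D replicate 3, from the same plate or plates, was also highest of its group for 7 of 10 genes. The lowest values at ZT24 did not share a number, with replicate 1 in sob3-6 (9 of 10) and replicate 2 in SOB3-D (8 of 10). The summed shoot markers of the 3 sob3-6 libraries were 29681, 28846 and 30631 CPM and the summed root markers 38.4, 23.1 and 24.7 CPM in replicates 1, 2 and 3. What sets sob3-6 replicate 3 apart was not tested. At ZT9, replicate 2 had the lowest value of its group for 10 of 10 genes in SOB3-D and for 9 of 10 in sob3-6.

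**Figure D4:**
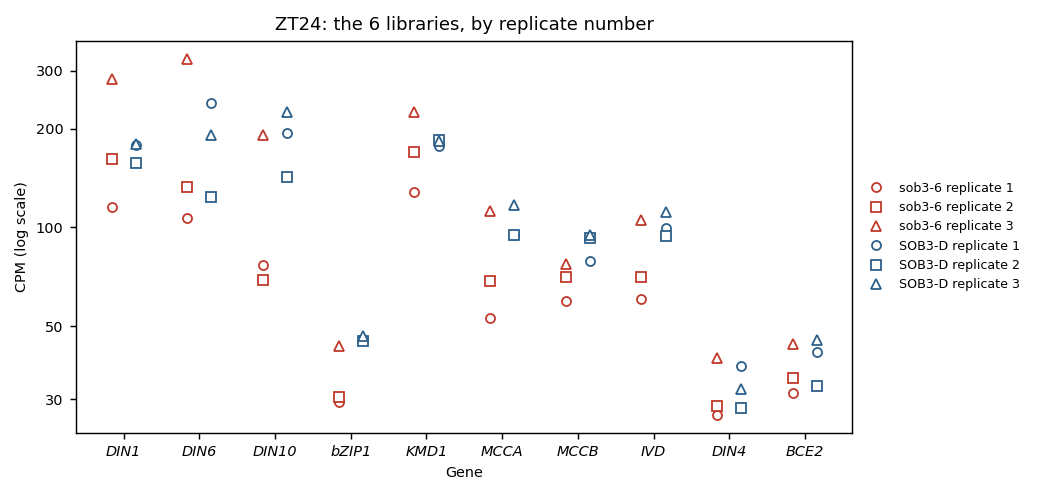
CPM on a log axis of each of the 10 genes at ZT24 in the 3 sob3-6 libraries (red, left) and the 3 SOB3-D libraries (blue, right), with the replicate number by symbol. The sob3-6 replicate 3 triangle is the highest red symbol for 10 of 10 genes.

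The genes of the set differed in how closely they followed one profile. Against the mean log2 profile of bZIP1, KMD1 and MCCA over the 18 libraries, Pearson's r was 0.96 for BCE2, 0.95 for MCCB, 0.93 for DIN1, 0.87 for DIN4, 0.78 for DIN6, 0.75 for IVD and 0.70 for DIN10. BCE2 ranked 22, MCCB 37, DIN1 64, DIN4 270, DIN6 858, IVD 1146 and DIN10 1611 by r, so that many genes outside the set followed the profile more closely than the last of these. The libraries share 3 times and 2 genotypes, and the profile is built from the 3 genes behind the choice of the set, so r is a description. Among 15994 genes with a mean of at least 5 CPM, the 5 outside the set with the highest r were AT5G49448 (0.99, the locus with the reads of bZIP1), bZIP63 (0.98), AAE5 (0.97), AKINBETA1 (0.97) and AT1G15400 (0.97).

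The neighbouring pathways gave the setting, as 56 further genes in 6 lists, of which 53 or 54 could be tested at each time. At ZT4, 8 of 54 rose in sob3-6 and 1 fell in limma's test, where 4.25% of all transcripts were called higher and 2.41% lower, and the largest rise was that of BGAL4, a beta-galactosidase, with 94.6, 77.7 and 152 CPM in sob3-6 and 27.9, 16.9 and 27.3 CPM in SOB3-D (log2 2.12, SE 0.26, adjusted p = 0.00244). The others that rose were DRM1 (0.92), TPS11 (1.01), STP1 (0.87), KMD3 (0.66), APL3 (0.67), LKR/SDH (0.61) and LPD1 (0.39), while NIA1, a nitrate reductase, fell (-1.04, SE 0.19, adjusted p = 0.0148). These calls moved with single libraries. Without SOB3-D replicate 2 the count of 9 fell to 1 (BGAL4), without sob3-6 replicate 1 to 2, without SOB3-D replicate 3 to 2 and without sob3-6 replicate 2 to 5, while without SOB3-D replicate 1 it was 14.

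At ZT9, 0 of 54 of these genes rose in limma's test, against 6 at an unadjusted p under 0.05 and 1 each (APL3) in edgeR and DESeq2, and 5 fell, where 6.05% of all transcripts were called higher and 4.18% lower. With the replicate block 5 rose and 8 fell, but the shares over all transcripts in that fit are not given here. ProDH1, which breaks down proline, had 93.3, 84.02 and 216 CPM in sob3-6 and 573, 357 and 524 CPM in SOB3-D (log2 -1.99). bZIP63, a C-group partner of the S1 factors and a target of SnRK1, had 28.2, 27.5 and 38.2 CPM in sob3-6 and 65.3, 48.8 and 69.4 CPM in SOB3-D (-0.96, SE 0.16, adjusted p = 0.00847). NIA1 (-1.17), ASN2 (-0.94) and TPS9 (-0.59, named after its values were seen) fell too. At ZT24, LPD1 (0.40) and bZIP2 (0.36) rose and KMD2 fell (-0.63), 3 of 53 genes, shares near those over all transcripts (4.98% higher and 2.09% lower), and the count was 1 without SOB3-D replicate 2, 0 without sob3-6 replicate 2 and 7 without sob3-6 replicate 3. At ZT9 it was 10 without sob3-6 replicate 3 and 9 without SOB3-D replicate 3.

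The change of the genotype difference between ZT4 and ZT9 could be tested in genes outside the set. Their lists were chosen with earlier results of these data known, so the calls are not independent of those results. A change that passes is not a tested turn of sign. Of the genes that passed, KMD3 and LPD1 were called at ZT4 but not ZT9, bZIP63 at ZT9 but not ZT4, and ALDH6B2 at neither. The change of the genotype difference was negative in 38 of 54, with a median of -0.32 against -0.01 over all transcripts. In limma it passed in 4 of the 54, all downwards, against 0.447% of all transcripts downwards and 1.05% upwards: bZIP63 (-1.60, SE 0.30, adjusted p = 0.0102), KMD3 (-0.85, SE 0.18, adjusted p = 0.0194), LPD1 (-0.60, SE 0.09, adjusted p = 0.00244) and ALDH6B2 (-0.54, SE 0.12, adjusted p = 0.0221). Upwards it passed in 0 in limma, in 1 at an unadjusted p under 0.05, and in 0 in edgeR and DESeq2. bZIP63, KMD3 and LPD1 also passed in edgeR, and 0 genes passed without the replicate 1 libraries or without the replicate 2 libraries. KMD1 thus had the same signs as its relative KMD3, which had 48.7, 49.1 and 57.3 CPM in sob3-6 and 39.3, 31.0 and 27.9 CPM in SOB3-D seedlings at ZT4, then 93.1, 92.4 and 72.8 CPM in sob3-6 and 99.4, 93.3 and 100 CPM in SOB3-D seedlings at ZT9. Counting signs, 8 of the 10 carbon starvation genes and 20 of 53 other pathway genes stood higher at ZT4 and lower at ZT9 in sob3-6, the first being fixed by the choice. The share of all transcripts with these signs was not computed, so nothing is read from the 20 of 53.

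Over the day, counts for the 6 lists are set beside the 29.0% of all transcripts that rose and the 15.9% that fell between ZT9 and ZT4, averaged over the genotypes, and differences between lists were not tested. In this contrast 3 of 3 other KMD genes rose (median log2 1.15), as did 9 of 12 other dark- and starvation-induced genes (median 1.34), with 0 falling in either list. The genes of the second list that were not called were DIN2, DIN9 and DIN11. Their mean at ZT9 over that at ZT4 was 1.11, 0.96 and 2.01 in sob3-6. In SOB3-D it was 0.73, 0.67 and 5.47. In the rest of branched-chain amino acid breakdown 6 of 16 rose and 2 fell (median 0.09), and of the C/S1 bZIP and SnRK1 genes 2 of 10 rose and 1 fell (median -0.03). Of the genes of amino acid use 4 of 8 rose and 0 fell (median 0.35), and of the sugar-induced genes 1 of 5 rose and 3 fell (median -0.82).

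**Figure D5:**
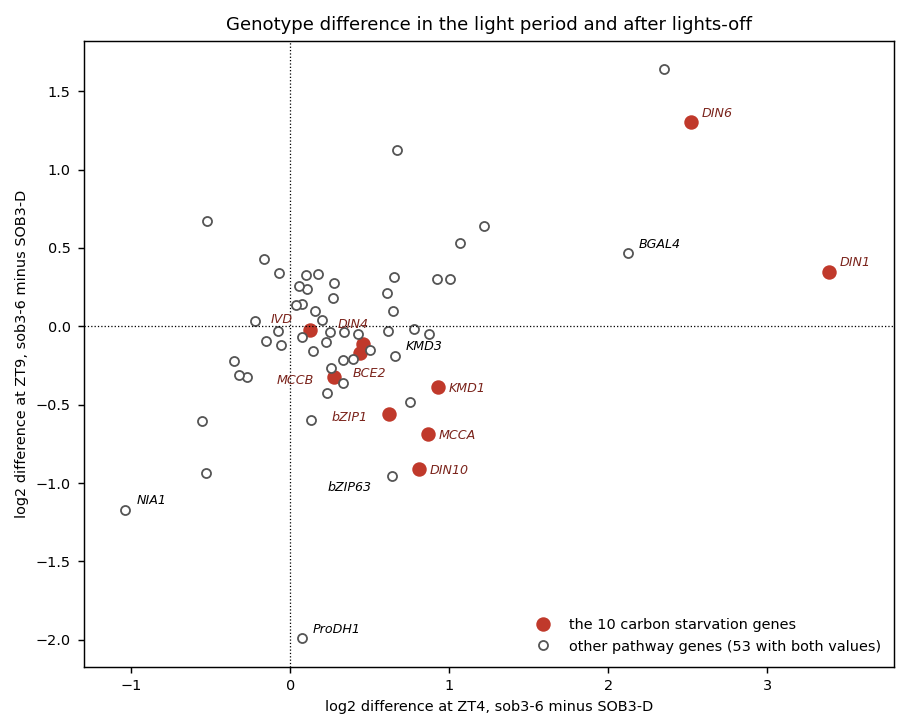
Log2 difference of sob3-6 minus SOB3-D at ZT4 (x axis) and ZT9 (y axis) for the 10 carbon starvation genes (filled red) and 53 other pathway genes with both values (open). The lower right quadrant, higher at ZT4 and lower at ZT9, holds 8 filled and 20 open points, among them bZIP63 beside DIN10.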

How the data were processed

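RNA from whole seedlings was sequenced in 18 libraries, and the authors deposited 1 table per time with a normalised read signal per transcript. Per the study's methods, the authors aligned reads to TAIR10 cDNA with Bowtie and kept all best hits, so that a read can count on several transcripts. How the deposited values were scaled is not given in the sources used here, and division of reads per transcript by the reads of the library was inferred from the values. Tool versions and the use of strand in counting are not given in the sources used here. The deposited signal is called CPM here. Because of multiple hits, columns sum to 1546178 to 1573550. 100% of values came out as whole reads within 0.05 reads. Genotype and replicate came from the column names and the time from the table. No other sample column was present.

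Values were tested as log2(CPM + 0.5), which understates changes of low genes, after a filter on a mean of at least 0.5 CPM, with limma 3.58.1 (R 4.3.3, trend, two-sided) and Benjamini-Hochberg adjustment over all transcripts. Every adjusted p is limma's unless edgeR 4.0.16 (quasi-likelihood) or DESeq2 1.42.0 on the recovered reads is named. Genotypes were compared within each time on 6 libraries, without the pairing by plate unless the replicate block is named. Time and the change of the genotype difference were fitted on all 18. Each locus is shown by its transcript with the highest mean. Scripts used Python 3.11.15, pandas 2.3.3, numpy 2.4.6 and matplotlib 3.10.9, and the tests were checked on simulated data.

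Replicates grew on different plates. Same-numbered samples of a time shared plates, and their deviations from the group means correlated at 0.134 to 0.404 in 9 of 9 pairs, so the numbers pair the samples of a time. Across times shared plates are not stated, and same-numbered samples correlated at -0.102 to 0.471 in 36 pairs. In the fits of all 18 libraries the block joined the same number across times. The replicate block was an alternative, as were pseudocounts of 0.1 and 1 CPM, edgeR, DESeq2, TMM rescaling, a stricter filter (mean of at least 5 CPM) or none, one fit of all 18 libraries, one transcript per locus, and leaving out each replicate. The genes and the 6 pathway lists were chosen with earlier results of these data known. Named genes are the 10, up to 4 called genes of each list by size of the difference, and the 5 genes most like the mean profile of bZIP1, KMD1 and MCCA. Promoter windows came from RefSeq TAIR10.1. The window of bZIP1 is not reported here.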

Additional observations from a re-analysis of the deposited data

Results flagged for a closer look

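The genotype difference (sob3-6 minus SOB3-D, log2) differed between times in several genes. In genes outside the set the change from ZT4 to ZT9 was tested with limma over all transcripts and passed for bZIP63 (-1.60), KMD3 (-0.85), LPD1 (-0.60) and ALDH6B2 (-0.54). The lists that hold them were chosen with earlier results of these data known. In 6 genes of the set every replicate pair was higher in sob3-6 at ZT4 and lower at ZT9, with changes of -1.72 for DIN10, -1.55 for MCCA, -1.31 for KMD1, -1.18 for bZIP1, -0.60 for MCCB and -0.57 for DIN4. The set was chosen on this difference, so no test of it is given for these 6, and the difference counts as not tested.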

How the results depend on the processing

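With the replicate block 5 genes of the set were called at ZT24 in place of 0, and with one fit of all 18 libraries 1 (MCCB). Leaving out 1 library gave 0 to 5 there, and leaving out 1 replicate number gave 3 to 5 calls in place of 5 between ZT24 and ZT9. Of the other pathway genes, the block gave 14 calls in place of 9 at ZT4, 13 (5 higher, 8 lower) in place of 5 at ZT9 and 11 (6 higher, 5 lower) in place of 3 at ZT24, one fit gave 15 at ZT4 and 9 at ZT9, and a minimum mean of 5 CPM gave 5 at ZT24. Leaving out 1 library gave 1 to 14 at ZT4, 5 to 10 at ZT9 and 0 to 7 at ZT24, and leaving out 1 replicate number gave 0 to 4 for the change from ZT4 to ZT9. The cause was not tested. The block changed the calls given beside the results and the counts above. With it, 5.06% of all transcripts were called lower at ZT24, against 2.09% without it. Other shares over all transcripts with the block or the one fit are not given here. Those counts are therefore not read as a result about the pathway genes. Differences near 0 that were not called changed sign. At ZT24, DIN6 was 0.035 in edgeR and 0.028 in DESeq2, and without 1 library it ranged from -0.58 to 0.23, DIN1 from -0.33 to 0.32, KMD1 from -0.30 to 0.11 and DIN4 from -0.226 to 0.058. Between ZT24 and ZT9, DIN1 ranged from -0.10 to 0.33 and BCE2 from -0.01 to 0.12 without 1 replicate number. Of 840 alternative values for single genes of the set, 806 were labelled the same. For the ZT24 difference and the changes over the day this meant the same direction and side of the threshold. For the ZT4 and ZT9 differences it meant a shift smaller than the SD between replicates. Leaving out 1 library of 3 cannot shift a difference that far, and several other settings leave it unchanged. That label could hardly fail, so the tally is not read as stability. Among the ZT4 and ZT9 differences, IVD at ZT9 ranged from -0.114 to 0.047, with 3 changes of sign. Over all transcripts the calls higher and lower were 1198 and 679 in limma at ZT4, against 895 and 730 in edgeR and 970 and 912 in DESeq2. At ZT9 they were 1700 and 1175 in limma, 1410 and 1233 in edgeR and 1296 and 1394 in DESeq2. Between ZT9 and ZT4 they were 8182 and 4495 in limma, 6712 and 5491 in edgeR and 5905 and 5416 in DESeq2. Between ZT24 and ZT4 they were 7656 and 5135 in limma, 6320 and 6330 in edgeR and 5821 and 6047 in DESeq2. With 3 libraries per group, small differences could not be resolved.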
